A study of Mus musculus with 4 samples.

Results

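The genes described here encode the proteins of the mitochondrial ribosome. They were taken as every gene whose symbol is Mrpl or Mrps followed by a number and at most 1 letter and that had at least 1 count, which gave 78 genes of the 24621 with any count. All 78 passed the filter on low counts, so none was lost before testing, and 16120 genes were tested in all. Quadriceps RNA came from 2 WT and 2 Mef2dα2 Eko mice, 1 library per mouse, to ask what loss of the α2 exon of Mef2d does to muscle transcripts. Both genotypes were males of about 20 weeks of age on the C57BL6/J background, sedentary and fed standard chow. The paper describes them as littermates. The Eko mice carry a germline deletion of the exon, made with CRISPR-Cas9 and therefore present in every tissue and from conception. Mef2d encodes a transcription factor of the MEF2 family, and the α2 exon is the form included in mature striated muscle. The study bred more than 1 founder line, and the labels do not say from which the sequenced mice came.

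The mitochondrial ribosome translates the few messages that the mitochondrial genome encodes, all of them for core subunits of the respiratory chain and ATP synthase. Its ribosomal RNAs are made inside the organelle, while its proteins are encoded in the nucleus, made in the cytosol and imported. Part of these proteins descend from the bacterial ribosome and the others were added during the evolution of mitochondria, and skeletal muscle, an oxidative tissue, keeps the whole set expressed.

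The libraries held between 72626757 and 85176059 counts, and the ribosomal protein genes took 0.17% to 0.193% of them. WT replicate 1 stood apart from the other 3 libraries over all genes: comparing counts gene by gene, chi-square divided by its degrees of freedom was 130 to 230 for its pairs with the others and 38.7 to 45.3 for the pairs without it. Values without this library are given for the median of the ribosomal protein genes, for those of the gene lists set beside them and for several of the genes named. Muscle fibre markers were abundant in every library, with summed levels of 144220 and 148620 CPM in WT and 146480 and 153820 CPM in Eko, where CPM is the count per 1000000 counts of the library after TMM scaling. Summed levels of 8 adipocyte markers were 171 and 102 CPM in WT and 96.9 and 73.2 CPM in Eko, and those of 8 macrophage and leukocyte markers were 54.4 and 43.4 CPM in WT and 37.4 and 29.4 CPM in Eko. Of the adipocyte markers 7 of 8 had log2 fold changes below 0, and 4 an unadjusted p below 0.05. For the macrophage and leukocyte markers these were 8 of 8 and 5. Schwann cell markers were above 0 in 4 of 4, 2 with an unadjusted p below 0.05. Their summed levels were 22.7 and 25.5 CPM in WT and 28.2 and 34.4 CPM in Eko. Satellite cell markers were above 0 in 3 of 4, endothelial in 3 of 6, erythrocyte in 3 of 5 and fibroblast in 1 of 5. Among these last types only 2 fibroblast markers had an unadjusted p below 0.05, both lower in Eko. None of these markers was at 0, and their part in the results below was not tested. In whole muscle, fewer cells of a type and less RNA per cell cannot be told apart. Mef2d itself was at 259 and 227 CPM in WT and 252 and 241 CPM in Eko, a log2 fold change of 0.02 (SE 0.08, adjusted p = 0.960, edgeR), and gene counts do not separate its exons, so they do not check the deletion.

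Promoter sequence is shown for 6 of the genes, the 5 with the smallest p and Mrpl22, whose level differed least between genotypes, so that the start sites of genes at both ends can be set side by side. Each stretch runs from 70 bases before to 30 bases after the start of a RefSeq transcript on GRCm38.p6, 5′ to 3′ along the gene, which is on the - strand for Mrpl41 and on the + strand for the others. Capitals mark the ETS word CCGGAAG, bound by the GABP factors, the NRF1 core GCATGCGC (in Mrpl22 on the other strand) and the YY1 core AAGATGGC. These factors are known for driving nuclear genes of mitochondrial proteins. Mrpl14 and Mrpl41 held none of these words, in the stretch or in the longer window searched.
Mrpl34, chr8:71464856-71464955: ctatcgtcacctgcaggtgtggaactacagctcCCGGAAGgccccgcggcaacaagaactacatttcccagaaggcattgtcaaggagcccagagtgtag
Mrpl57, chr14:57826169-57826268: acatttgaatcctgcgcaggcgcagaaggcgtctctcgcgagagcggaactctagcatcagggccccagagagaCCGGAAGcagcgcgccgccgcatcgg
Mrpl14, chr17:45686279-45686378: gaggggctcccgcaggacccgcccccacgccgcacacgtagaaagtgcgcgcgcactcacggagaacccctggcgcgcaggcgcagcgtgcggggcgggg
Mrpl41, chr2:24975069-24975168: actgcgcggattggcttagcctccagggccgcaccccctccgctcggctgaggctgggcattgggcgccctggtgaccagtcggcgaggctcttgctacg
Mrps18a, chr17:46110934-46111033: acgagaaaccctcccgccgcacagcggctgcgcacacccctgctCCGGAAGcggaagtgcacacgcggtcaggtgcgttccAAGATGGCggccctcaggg
Mrpl22, chr11:58171594-58171693: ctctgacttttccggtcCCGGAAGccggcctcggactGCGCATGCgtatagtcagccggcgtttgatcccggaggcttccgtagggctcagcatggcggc

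RefSeq windows of 250 bases before to 50 after the start were matched by symbol for 69 of the 78 genes. Both strands were searched, and the words do not share letters with each other in the stretches above. The ETS word stood in 26 of the 69 genes (37.7%), against 18.6% of 10810 other tested genes and 8.86% of all 32851 windows. The YY1 core stood in 12 genes (17.4%), against 4.84% of the other tested genes and 2.75% of all windows. The NRF1 core stood in 8 genes (11.6%), against 5.56% of the other tested genes and 2.71% of all windows. The MEF2 motif, searched by its consensus, was in 0 of the 69 windows and in 0.675% of those of the other tested genes. These matches are letters in a window, and a window without them says only that they are not there. Genes with and without a word had similar differences between genotypes: the median log2 fold change was -0.11 with and -0.11 without the ETS word, -0.11 and -0.11 for the YY1 core, and -0.09 and -0.11 for the NRF1 core.

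Many of the genes sit close to a neighbour that is read in the opposite direction. In the GENCODE annotation the 1000 bases before each start were searched for the start of a protein-coding gene on the other strand. Such a neighbour stood there for 18 of the 78 (23.1%), against 9.57% of the other tested protein-coding genes. Pairs whose genes overlap at their starts, such as Mrpl46 and Mrps11, were not counted. Mrps12 and Sars2, the mitochondrial seryl-tRNA synthetase, start 172 bases apart, and Mrpl57 starts 49 bases from Ska3. The 18 paired genes had a median log2 fold change of -0.11 and the other 60 one of -0.105. Of the 78 genes, 36 overlap a gene on the other strand, Mrpl46 and Mrps11 each other among them, and whether counting used the strand is not given in the sources used here.

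The ribosomal protein genes were moderately expressed, with mean levels of 4.9 to 85.1 CPM and a median of 20.8 CPM. Mrpl51 was the most abundant, at 91.9 and 89.9 CPM in WT and 76.3 and 82.5 CPM in Eko. Mrpl42 followed at 79.3 and 73.4 CPM in WT and 70.3 and 71.5 CPM in Eko. Both encode large subunit proteins with no bacterial counterpart, and both had higher levels in the WT mice than in either Eko mouse. For Mrpl42 the log2 fold change was -0.11, and -0.05 without WT replicate 1. Mrpl12, which encodes the stalk protein that draws translation factors to the ribosome, was at 60.3 and 58.5 CPM in WT and 53.4 and 47.7 CPM in Eko. Mrpl50, of the large subunit, was at 47.0 and 50.3 CPM in WT and 44.7 and 48.5 CPM in Eko, so its genotypes overlapped. Mrps7, of the head of the small subunit, was at 49.3 and 50.7 CPM in WT and 46.2 and 45.9 CPM in Eko, where they did not.

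The least abundant gene was Mrps18c, at 4.76 and 5.18 CPM in WT and 5.12 and 4.54 CPM in Eko. Mrpl52 was at 5.88 and 6.39 CPM in WT and 5.64 and 5.31 CPM in Eko, and Mrps6 at 6.23 and 7.77 CPM in WT and 5.90 and 6.39 CPM in Eko. Mrps6 had the widest SE of all members, 0.14 on the log2 scale, and its genotypes overlapped. Mrps11, of the platform of the small subunit, was at 7.89 and 8.97 CPM in WT and 7.79 and 6.74 CPM in Eko. Mrpl22, which lines the tunnel through which new proteins leave, was at 9.04 and 9.04 CPM in WT and 8.72 and 9.35 CPM in Eko, with a log2 fold change of -0.001 (SE 0.10). Even the lowest of the 78 had at least 325 counts in each library, far above the floor of 3 counts, which lay between 0.0348 and 0.0419 CPM.

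Per kilobase of transcript the order was different. The median was 15.2 CPM per kb, and Mrpl42 led at 111 CPM per kb, ahead of Mrps21 at 72.1, Mrpl30 at 63.9 and Mrpl33 at 41.8 CPM per kb. Mrps35 was lowest at 2.48 CPM per kb. Most proteins of a ribosome are present in equal number, whereas their transcripts, on this scale, spanned a wide range. The length used is the median over the annotated transcripts of a gene, which need not be the form made in muscle.

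**Figure D1:**
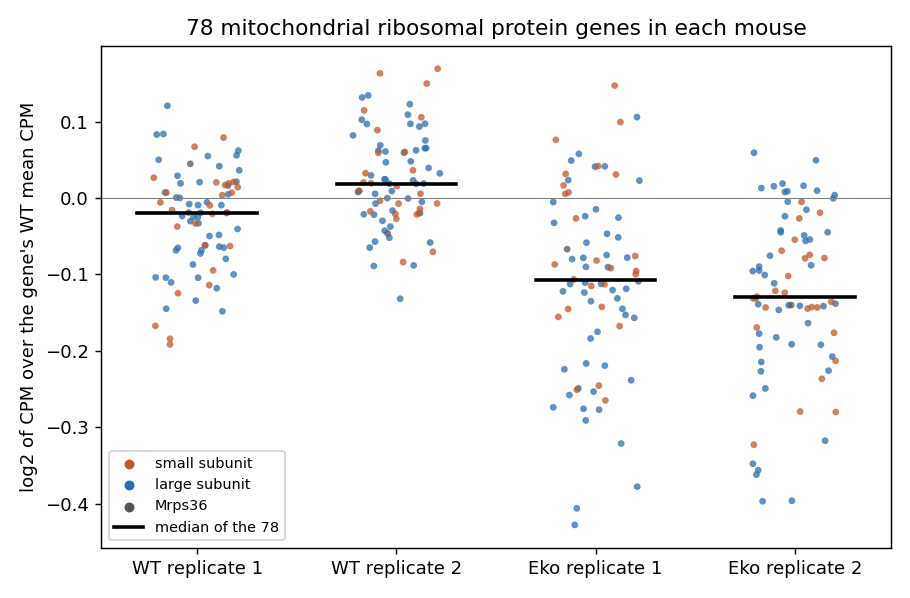
Level of each ribosomal protein gene in each mouse, as log2 of its CPM over the mean of the WT mice. Each point is 1 gene, and the medians were -0.019 (replicate 1) and 0.019 (replicate 2) for WT and -0.108 and -0.130 for Eko.

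No ribosomal protein gene passed the threshold between genotypes, and most of them stood slightly lower in Eko. At an adjusted p below 0.05 (edgeR quasi-likelihood test), 0 of the 78 were called, against 67 of the 16120 genes tested (0.416%), with 0.105% higher and 0.310% lower in Eko. The smallest adjusted p among them was 0.130, for Mrpl34. DESeq2 called 1 of the 78 and edgeR's likelihood ratio test called 1, in both cases Mrpl34, and limma-voom called 0. Without the filter on low counts edgeR called 4, Mrpl34, Mrpl14, Mrpl41 and Mrpl57. At an unadjusted p below 0.05, 16 of the 78 (20.5%) qualified, all lower in Eko, against 11.6% of all genes in either direction, 6.41% lower and 5.15% higher. The log2 fold change was below 0 for 70 of the 78, against 51.3% of all genes tested, and above 0 for 8 (10.3%), against 48.7%. Its median over the 78 was -0.105, with the middle part of the distribution between -0.18 and -0.05 and a range from -0.39 to 0.05, and the median over all genes was -0.01. These genes are measured in the same 4 libraries and are not independent of each other, so no p is attached to the median or to the share.

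Summed over the 78 genes, the level was 1845 and 1903 CPM in WT and 1737 and 1727 CPM in Eko, and the Eko mean was 92.4% of the WT mean. Both Eko mice lay below both WT mice. The small subunit genes summed to 542 and 561 CPM in WT and 526 and 507 CPM in Eko, and the large subunit genes to 1279 and 1319 CPM in WT and 1189 and 1198 CPM in Eko. With 2 mice against 2, an exact permutation test of a sum cannot give a p below 0.333. Among single genes, both Eko mice lay below both WT mice in 42 of the 78 (53.8%) and above them in 0, against 23.0% and 20.8% of all genes, 43.8% together. The genotypes overlapped in the other 36. WT replicate 2 held the highest level of 44 genes and the lowest of 0, whereas WT replicate 1 held the highest of 26 and the lowest of 14.

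The size of this shift depended on 1 mouse. Without WT replicate 2 the median log2 fold change was -0.05 and 25 of the 78 were above 0, and without WT replicate 1, the library that stood apart, the median was -0.13 and 2 were above 0. Genes below 0 in all 4 fits that left out a mouse numbered 44, and no gene was above 0 in all 4. Of the 70 genes below 0, 43 stayed below 0 in all of the 14 alternatives tried. Without Eko replicate 1 the number with an unadjusted p below 0.05 was 6, and without Eko replicate 2 it was 8, and without WT replicate 2 it was 15, of which 14 were lower and Mrps14 was higher in Eko.

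**Figure D2:**
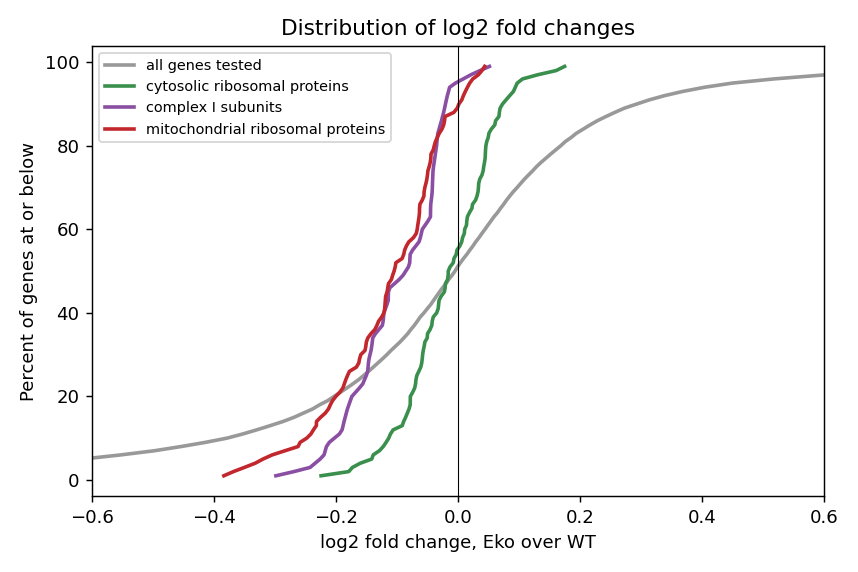
Distribution of the log2 fold change, Eko over WT, for the mitochondrial ribosomal protein genes, the cytosolic ribosomal protein genes, the complex I genes and all genes tested. Medians were -0.105, -0.02, -0.09 and -0.01.

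Large subunit genes held 14 of the 16 with an unadjusted p below 0.05, which is 27.5% of the 51 large subunit genes, while the small subunit held 2, or 7.7% of its 26. Medians were close, -0.10 for the large and -0.11 for the small subunit. The difference between the subunits was not tested. Within the large subunit, the 21 genes classed as specific to mitochondria, Mrps18a and Mrpl58 among them, had a median of -0.16. Of these, 0 were above 0 and 7 had an unadjusted p below 0.05. The 29 with a bacterial counterpart had a median of -0.07, with 6 at an unadjusted p below 0.05. Mrpl55, also one of the 14, was put in neither class. In the small subunit the order was the other way. The 16 genes with a bacterial counterpart had a median of -0.12 and the 9 classed as specific to mitochondria a median of -0.06. Mrps28 was put in neither class.

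Mrpl34 (chr8:71464959-71465747, + strand, GRCm38) encodes a small basic protein of the large subunit with a bacterial counterpart. It was at 25 and 23.8 CPM in WT and 18.4 and 19.0 CPM in Eko. The genotypes did not overlap, and the log2 fold change was -0.38 (SE 0.07, 95% interval -0.56 to -0.20, adjusted p = 0.130, edgeR). DESeq2 gave it an adjusted p of 0.0313, the likelihood ratio test 0.0233 and the fit without a filter on low counts 0.00437, and the highest value over the alternatives was 0.253.

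Mrpl14 (chr17:45686322-45698495, + strand), at the face of the large subunit that meets the small one, was at 21.2 and 22.1 CPM in WT and 16.6 and 18.1 CPM in Eko, a log2 fold change of -0.32 (SE 0.08, adjusted p = 0.226, edgeR). Mrpl4 (chr9:21002738-21008839, + strand), a protein of the exit tunnel wall, was at 26.9 and 24.6 CPM in WT and 21.7 and 20.2 CPM in Eko, a log2 fold change of -0.30 (SE 0.08, adjusted p = 0.257, edgeR). Both have bacterial counterparts, and in both every WT value exceeded every Eko value. Mrpl12, given above, had a log2 fold change of -0.23 (SE 0.08, adjusted p = 0.344, edgeR), which was -0.15 without Eko replicate 2. Without WT replicate 1 the log2 fold change of Mrpl4 was -0.23.

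Among large subunit genes without a bacterial counterpart, Mrpl41 (chr2:24974117-24975098, - strand) had the lowest log2 fold change of all 78, -0.39 (SE 0.10, adjusted p = 0.226, edgeR), at 13.0 and 11.6 CPM in WT and 9.15 and 9.58 CPM in Eko. Mrpl57 (chr14:57826234-57829296, + strand) was at 14.4 and 14.6 CPM in WT and 11.6 and 11.0 CPM in Eko, a log2 fold change of -0.36 (SE 0.08, adjusted p = 0.197, edgeR). Neither gene overlapped between genotypes, and the gap between them exceeded the gap within either genotype. Mrpl38 (chr11:116131817-116138868, - strand) was at 37.0 and 35.6 CPM in WT and 30.8 and 31.0 CPM in Eko, a log2 fold change of -0.23 (SE 0.07, adjusted p = 0.286, edgeR). Mrpl46 (chr7:78775236-78783531, - strand) was at 13.0 and 11.6 CPM in WT and 10.2 and 9.35 CPM in Eko, a log2 fold change of -0.33 (SE 0.10, adjusted p = 0.298, edgeR). Mrpl46 shares part of its locus with Mrps11, so their reads could be mixed. Without WT replicate 1, the higher WT mouse in both, the log2 fold change of Mrpl41 was -0.31 and that of Mrpl46 -0.25. The correction for GC content described below brought Mrpl38 to -0.15.

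Mrps18a (chr17:46110986-46128910, + strand) carries a small subunit symbol, but its protein sits in the large subunit. It was at 24.1 and 24.0 CPM in WT and 19.8 and 20.2 CPM in Eko, a log2 fold change of -0.26 (SE 0.07, adjusted p = 0.247, edgeR). Its relatives of the small subunit, Mrps18b and Mrps18c, had log2 fold changes of -0.15 and -0.04. Mrps12 (chr7:28739641-28741820, - strand), a protein of the decoding centre of the small subunit, was at 19.9 and 19.8 CPM in WT and 16.7 and 16.8 CPM in Eko, a log2 fold change of -0.24 (SE 0.07, adjusted p = 0.290, edgeR). Its WT mice and its Eko mice were each nearly equal, and the difference between genotypes exceeded both gaps without passing adjustment over all genes. Its neighbour Sars2 was at 6.01 and 6.49 CPM in WT and 6.25 and 6.24 CPM in Eko.

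The other 7 genes with an unadjusted p below 0.05 were Mrpl55, Mrps2, Mrpl12, Mrpl51, Mrpl10, Mrpl20 and Mrpl43, with log2 fold changes of -0.26 to -0.18. Mrpl10 and Mrpl12 together form the stalk, and Mrps2 is the only small subunit gene of the 7. None of the 7 overlapped between genotypes, as none of the 16 with an unadjusted p below 0.05 did. A small p from the same values makes this likely, so it adds nothing to the p. Of all genes tested, 43.8% did not overlap.

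At the other end, the highest log2 fold changes were near 0. Mrps31 was at 15.0 and 14.7 CPM in WT and 16.4 and 14.3 CPM in Eko, a log2 fold change of 0.05 (SE 0.09, adjusted p = 0.878, edgeR). Mrps14 was at 20.5 and 26.1 CPM in WT and 24.9 and 23.0 CPM in Eko, and Mrpl18 at 41.5 and 47.7 CPM in WT and 46.4 and 45.1 CPM in Eko. Mrpl32 was at 17.1 and 18.7 CPM in WT and 18.4 and 18 CPM in Eko. In all 4 the genotypes overlapped, and for Mrps14, Mrpl18 and Mrpl32 the WT mice bracketed the Eko mice. Without WT replicate 1, which was the lowest mouse for these 3, their log2 fold changes were -0.12, -0.06 and -0.04.

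**Figure D3:**
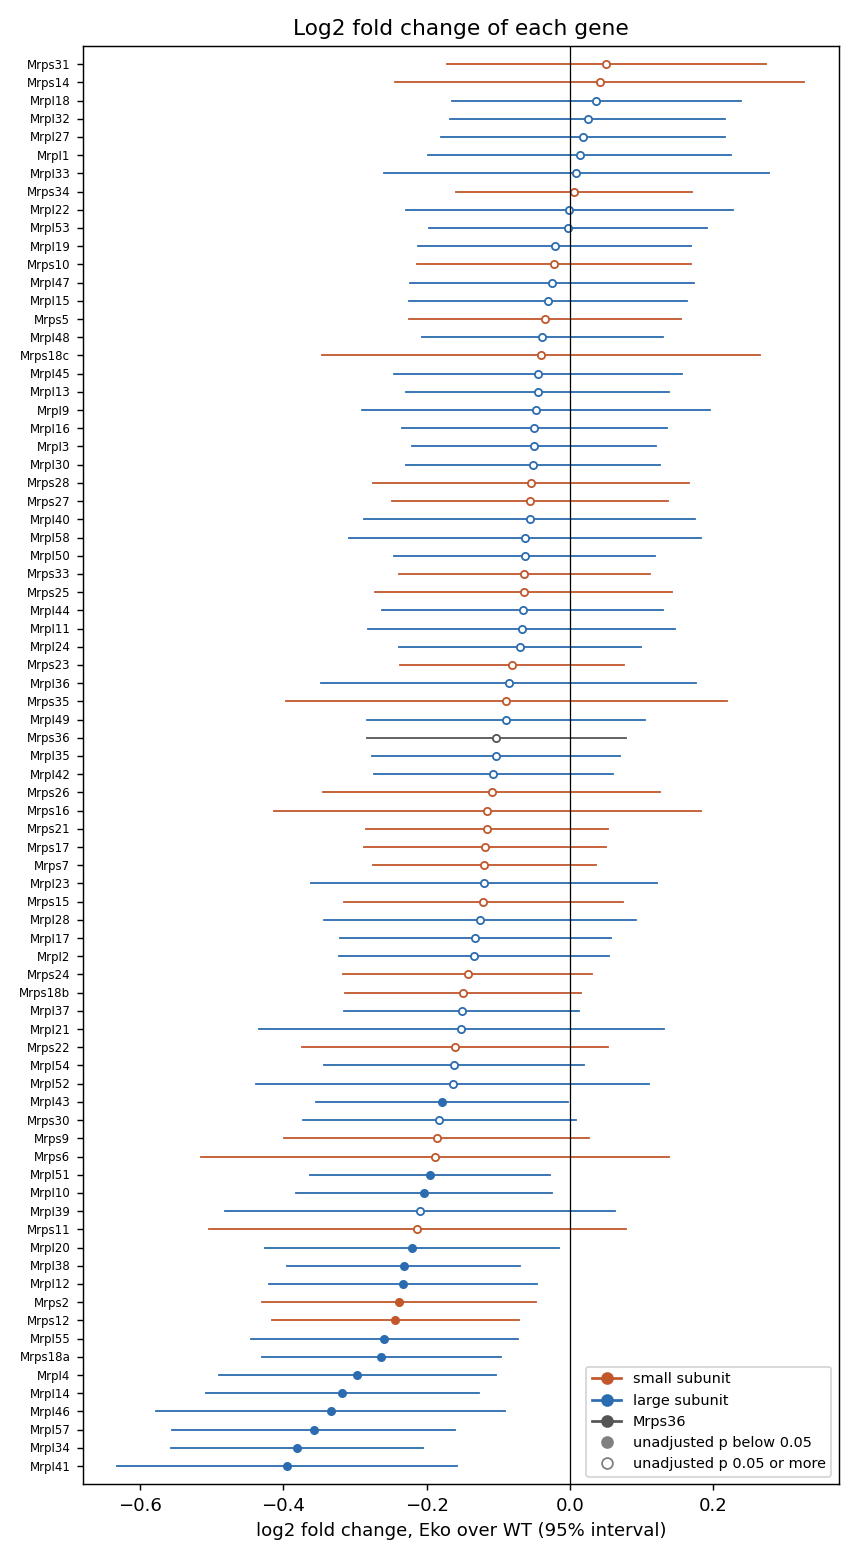
Log2 fold change of each ribosomal protein gene, Eko over WT, with its 95% interval from edgeR. The genes are ordered by value from Mrpl41 at -0.39 to Mrps31 at 0.05.

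The intervals limit how large a difference could have been missed. For 71 of the 78 genes the 95% interval lay within 0.5 of 0 on the log2 scale, its outer bounds over all genes being -0.63 and 0.33, and for 61 it left out a level in Eko 25% or more below WT. These intervals hold for 1 gene at a time and for the quasi-likelihood fit. For Mrpl38 the SE was 0.068 here, 0.096 with DESeq2, 0.101 with the likelihood ratio test and 0.065 with at least 1 CPM in 2 libraries. The SE ran from 0.066 to 0.138, with a median of 0.081, against 0.135 over all genes tested. In 36 genes the genotype means differed by less than the WT mice did from each other.

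Ribosomal protein genes of higher GC content had lower log2 fold changes. Over the 78 genes Spearman's rho between transcript GC content and log2 fold change was -0.47, and over 15636 tested genes it was -0.22. The genes share their libraries, so this is a description. The 26 genes of highest GC content, 52.5% to 60.6%, had a median log2 fold change of -0.16, and the 26 of lowest, 41.4% to 48.4%, had one of -0.06. The 16 genes with an unadjusted p below 0.05 had a median GC content of 54.8%, against 49.6% for the other 62. After a correction for GC content in each library Spearman's rho over the 78 was -0.07, the median log2 fold change was -0.09, and 73 of the 78 were below 0. Mrpl34, with a GC content of 58.3%, had a log2 fold change of -0.30 after it. A correction for transcript length gave a median of -0.06 with 60 below 0. The transcripts of these genes had a median length of 1224 bases, against 2554 over all genes tested.

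**Figure D4:**
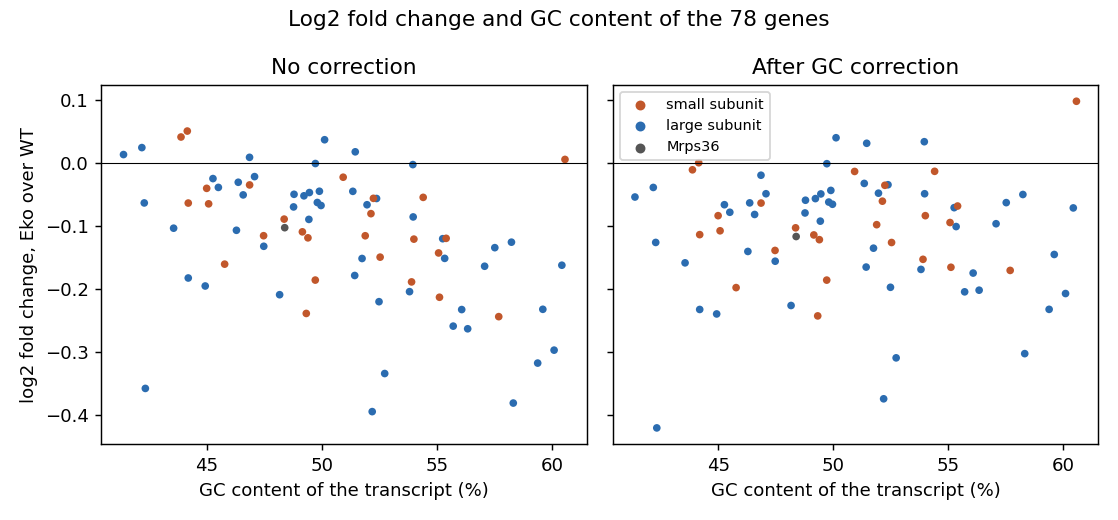
Log2 fold change, Eko over WT, against transcript GC content in percent for the ribosomal protein genes. Each point is 1 gene, and values go down from a median of -0.06 in the third of lowest GC content to -0.16 in the third of highest.

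Other genes of like level had a median difference near 0. The 7421 other tested genes within the same range of levels had a median log2 fold change of 0.00, 48.8% were below 0, and 7.86% were lower with an unadjusted p below 0.05. The 86 tested genes of cytosolic ribosomal proteins, which build the ribosome outside mitochondria, had a median of -0.02 with 38 above 0, and 3 of them had an unadjusted p below 0.05. The 36 genes of complex I, the NADH dehydrogenase whose core the mitochondrial ribosome makes, had a median of -0.09 with 2 above 0, and 8 had an unadjusted p below 0.05, all lower in Eko. Without WT replicate 1 the medians were -0.09 for the cytosolic ribosomal protein genes and -0.14 for complex I, beside -0.13 for the mitochondrial ribosomal protein genes and 0.00 for all genes. No gene of either group passed the adjusted threshold, and their differences from the mitochondrial ribosomal protein genes were not tested.

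Proteins of the mitochondrial ribosome that carry other symbols were listed too. All 5 tested under such a symbol had log2 fold changes below 0, from -0.12 for Aurkaip1 and Chchd1 to -0.01 for Dap3, with a median of -0.10. That median was -0.09 without WT replicate 1. In 4 of the 5 both Eko mice lay below both WT mice, which was so for 23.0% of all genes tested. An unadjusted p below 0.05 was reached by 0 of the 5. The sixth on the list, Ict1, stands in the files as Mrpl58 and is one of the 78, a release factor-like enzyme built into the large subunit.

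Of the 26 tested genes for assembly of the ribosome and modification of its RNA, 0 passed adjustment in edgeR and 3 had an unadjusted p below 0.05, all lower in Eko. The median log2 fold change was -0.05, and also -0.05 without WT replicate 1. Mrm1, a methyltransferase of the large ribosomal RNA, was at 6.89 and 6.34 CPM in WT and 5.43 and 4.64 CPM in Eko, a log2 fold change of -0.39 (adjusted p = 0.326, edgeR). Ybey, an RNase needed for the small subunit, had one of -0.31 (adjusted p = 0.347, edgeR). The 16 translation factors and messenger RNA partners had a median of -0.04, and of -0.02 without WT replicate 1. Of the 16, 0 were past adjustment and 1 was lower at an unadjusted p below 0.05. Tufm, the elongation factor that brings transfer RNA to the ribosome, was at 64.2 and 64.2 CPM in WT and 57.0 and 57.7 CPM in Eko, a log2 fold change of -0.16 (adjusted p = 0.403, edgeR). Gfm2, which acts in ribosome recycling, had one of -0.13.

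The 20 genes for mitochondrial aminoacyl-tRNA synthetases and related enzymes, which charge transfer RNA, had a median of 0.01, with 0 past adjustment in edgeR and 1 lower at an unadjusted p below 0.05. Cars2 had a log2 fold change of -0.30 (adjusted p = 0.364, edgeR) and Rars2 one of 0.24. Lars2 was at 198 CPM in WT replicate 1 and at 644 CPM in WT replicate 2, and at 635 and 700 CPM in Eko, so WT replicate 1 alone stood low, and its log2 fold change was 0.67 with that library and 0.05 without it. The median of the 20 genes was -0.03 without it. This gene is outside the naming rule and was chosen after its values were seen. The 13 genes for transcription of mitochondrial DNA and RNA processing had a median of 0.03, and of 0.015 without WT replicate 1. Of the 13, 0 were past adjustment and 0 had an unadjusted p below 0.05. Tfb2m, a transcription factor of the organelle, had a log2 fold change of 0.15, and Ssbp1, which binds single-stranded mitochondrial DNA, one of -0.14.

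Nuclear regulators of mitochondrial genes had a median log2 fold change of -0.01 over 9 genes, and of 0.006 without WT replicate 1. Of the 9, 0 passed adjustment in edgeR, with 1 higher and 1 lower at an unadjusted p below 0.05. Whether they act on the ribosomal protein genes in this muscle was not tested. Gabpa, the DNA-binding part of GABP, was at 28.5 and 28.1 CPM in WT and 31.8 and 31.7 CPM in Eko, a log2 fold change of 0.17 (adjusted p = 0.411, edgeR). Esrra, an orphan nuclear receptor of oxidative metabolism, was at 74.6 and 75.3 CPM in WT and 68.8 and 64.9 CPM in Eko, a log2 fold change of -0.17 (adjusted p = 0.419, edgeR). The genotypes did not overlap in either gene, and the directions were opposite.

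The RNA partners of these proteins are transcribed from the mitochondrial genome. The large ribosomal RNA mt-Rnr2 was at 5709 and 4727 CPM in WT and 3397 and 4632 CPM in Eko, a log2 fold change of -0.38 (adjusted p = 0.436, edgeR). The small ribosomal RNA mt-Rnr1 was at 2449 and 2357 CPM in WT and 1682 and 2242 CPM in Eko, a log2 fold change of -0.29 (adjusted p = 0.469, edgeR). In both the WT mice lay above the Eko mice, and Eko replicate 1 was well below Eko replicate 2. Libraries of polyA RNA catch ribosomal RNA of mitochondria only in part. Over all 15 genes of the mitochondrial genome on the list the median was -0.17 and 0 passed adjustment in edgeR, with 1 higher and 0 lower at an unadjusted p below 0.05. The higher one was mt-Nd6, the one protein gene read from the other strand, at a log2 fold change of 0.25 (adjusted p = 0.384, edgeR). Their summed level was 209410 and 155750 CPM in WT and 171910 and 161300 CPM in Eko, so WT replicate 1 stood highest and the genotypes overlapped. Without WT replicate 1 the median over the 15 genes was 0.10, the opposite sign, and the log2 fold changes of mt-Rnr2, mt-Rnr1 and mt-Nd6 were -0.23, -0.26 and 0.17.

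Among the myosin genes of fast fibres, Myh1 and Myh2 were lower in both Eko mice and Myh4, by far the most abundant, was not. Myh2, the myosin of oxidative fast fibres, was at 1576 and 1709 CPM in WT and 1264 and 1041 CPM in Eko, a log2 fold change of -0.51 (adjusted p = 0.161, edgeR). Myh1, of intermediate fast fibres, was at 4967 and 3984 CPM in WT and 3476 and 3121 CPM in Eko, a log2 fold change of -0.44 (adjusted p = 0.261, edgeR). Without WT replicate 1 the log2 fold change of Myh1 was -0.27. Myh4 had one of 0.07. None of the 3 passed the threshold, and their part in the shift of the ribosomal protein genes was not tested.

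Mrps36 keeps a ribosomal name, but its protein is now known as a part of the 2-oxoglutarate dehydrogenase complex. It was at 24.1 and 22.6 CPM in WT and 22.3 and 21.2 CPM in Eko, so its genotypes did not overlap either. Pseudogene rows were left out by the naming rule. Of these, Mrpl23-ps1 had 1725 to 2267 counts per library, more than the 681 to 913 of Mrpl23 itself. Reads of the 2 could have been divided between them, so the level of Mrpl23 is uncertain. The log2 fold change was -0.10 for Mrpl23-ps1 and -0.12 for Mrpl23.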

How the data were processed

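The values are expected counts per gene, which the authors obtained with RSEM from reads aligned to mm10, using Ensembl's GRCm38 gene models, and deposited without normalization. STAR 2.6.1a is named in the submitters' processing notes, and a strand setting is not given in the sources used here. All expected counts were whole (0 values were not), so rounding changed none, and 0 columns of values were left unassigned. Each genotype had 2 mice, each a library of its own, grouped by the labels. Members and lists were chosen with earlier results of these data known.

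In R 4.3.3, edgeR 4.0.16 fitted genotype alone by quasi-likelihood to all genes, after TMM scaling and its default filter on low counts. Benjamini-Hochberg adjustment ran over all genes tested, with a threshold of 0.05. Alternatives used DESeq2 1.42.0, limma 3.58.1 (voom), other scalings and filters, corrections for GC content and transcript length (lowess span 0.3), a replicate block, and each mouse left out. Fits were tested on simulated data. Positions, length and GC content came from GENCODE M21 on GRCm38, promoter windows from RefSeq on GRCm38.p6. Floors cover counting error only.

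Named members were those called, the 8 with the smallest p, the 4 with the highest and the 4 with the lowest log2 fold change, and the 5 most and the 5 least abundant. Named list genes were those called and the 2 with the smallest p per list. Other genes named were chosen after their values were seen.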

Additional observations from a re-analysis of the deposited data

How the results depend on the processing

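The number of ribosomal protein genes with an adjusted p below 0.05 was 0, and it was 1 with DESeq2, 1 with edgeR's likelihood ratio test and 4 with no filter on low counts, of 16120 genes tested in the main analysis. The number over all genes was 67, and it was 318 with DESeq2, 312 with the likelihood ratio test, 799 with no filter, 23 with at least 1 CPM in 2 libraries and 186 with the replicate block. It lay between 99 (without WT replicate 1) and 299 (without WT replicate 2) with 1 mouse left out. Leaving 1 mouse out gave between 6 and 16 ribosomal protein genes with an unadjusted p below 0.05, against 16, with 6 without Eko replicate 1 and 8 without Eko replicate 2, and 1 of 15, Mrps14, higher in Eko without WT replicate 2, and a median log2 fold change between -0.1309 and -0.0494, against -0.105. The lone mouse of a genotype is then taken to vary like the other genotype. The correction for transcript length gave a median of -0.06. The cause of these changes was not tested.

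Over these alternatives 35 of the 78 genes turned sign at least once, 7 of the 23 named genes and 28 of the others, whose log2 fold changes went down to -0.1515. Mrpl22 was at 0.007 with DESeq2, 0.0072 with RLE scaling and 0.0702 with the length correction. With the GC correction Mrpl32 was at -0.0387 and Mrps14 at -0.0107, and with the length correction Mrps18c was at 0.0334. With 1 mouse left out Mrpl18 ranged from -0.0588 to 0.1556, Mrpl22 from -0.0514 to 0.0634, Mrpl32 from -0.0369 to 0.1047, Mrpl50 from -0.1237 to 0.0091, Mrps14 from -0.1206 to 0.2407, Mrps18c from -0.1152 to 0.0416 and Mrps31 from -0.0404 to 0.1472.

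The labels number the mice 1 and 2 in each genotype, without saying that a number marks a pair. The paper calls the mice littermates, without saying which of them came from 1 litter. Deviations of same-numbered mice from the genotype means correlated at r = 0.0909 across 16120 genes. With 2 mice per genotype this cannot decide whether same-numbered mice are paired, and the main fit did not pair them. With the replicate block 17 ribosomal protein genes had an unadjusted p below 0.05 and 0 an adjusted one. With 2 mice per genotype, small differences in single genes are below what these data can show.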
